A study of Mus musculus with 138 samples.

Results

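The genes described here are 10 mouse genes for histone variants and for the proteins that carry or store histones, out of 25900 genes counted in the study. They were chosen by name: the linker histone genes H1foo and H1f0, the H2A variant genes H2afz, H2afx and H2afy, the H3.3 genes H3f3a and H3f3b, and the chaperone genes Hira, Daxx and Npm2. All 10 were in both count tables. The rule that lists them uses no measured value, but the list was drawn up with earlier results of these data known. The libraries held polyadenylated RNA of mouse embryos at the 2-cell stage, made by the RNA arm of scNMT-seq, a protocol that reads RNA and DNA of the same sample separately. The study asked what loss of SMARCA5, the motor subunit of the ISWI family of chromatin remodellers, does to the start of transcription from the embryo's own genome.

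In the deletion experiment, 28 libraries carried the genotype label Smarca5 +/- (mat KO) and came from females lacking maternal Smarca5 mated with wild type males; they are called deletion embryos here. The 22 libraries labelled Smarca5 +/+ serve as wild type. Since matKO females appear in the titles of both groups, titles do not show which mothers differed, the driver of the deletion is not named, and the embryo's genotype and maternal loss cannot be told apart. In the TrimAway experiment, in which an injected antibody sends its target to degradation through the ubiquitin ligase TRIM21, all embryos were wild type: 31 libraries came from embryos given a-Smarca5 antibody as zygotes, 20 from embryos given IgG and 15 from the group labelled No injection ctrl. These libraries were made 24 hours or more after injection. Embryos of each replicate number were pooled from several matings or injections and were not traced to a mother, so the p-values treat embryos as independent.

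As background, many histone variants are made throughout the cell cycle from genes whose messages carry a polyA tail, unlike the messages of the replication-coupled histones, which end in a stem-loop; H2afx is known to give messages of both kinds. The oocyte stores some of these proteins and messages for the embryo. The egg's linker histone H1FOO is replaced by somatic linker histones as development begins, while HIRA and DAXX place H3.3 into chromatin without DNA replication and nucleoplasmin, the product of Npm2, binds histones in the egg.

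The 10 genes lie on 10 chromosomes of GRCm38. H1foo (ENSMUSG00000042279) is at chr6:115944938-115950236 on the plus strand, H1f0 (ENSMUSG00000096210) at chr15:79028212-79030498 on the plus strand, H2afz (ENSMUSG00000037894) at chr3:137864487-137866922 on the plus strand and H2afx (ENSMUSG00000049932) at chr9:44334715-44336071 on the plus strand. H2afy (ENSMUSG00000015937) is at chr13:56073619-56136361 on the minus strand, H3f3a (ENSMUSG00000060743) at chr1:180800832-180813943 on the minus strand and H3f3b (ENSMUSG00000016559) at chr11:116021912-116027962 on the minus strand. Hira (ENSMUSG00000022702) is at chr16:18877037-18970309 on the plus strand, Daxx (ENSMUSG00000002307) at chr17:33909414-33915589 on the plus strand and Npm2 (ENSMUSG00000047911) at chr14:70647302-70653084 on the minus strand. Annotated genes on the opposite strand overlap H1f0 (Gm49544), H2afx (Gm44335), H2afy (Gm47071), H3f3a (Gm17275 and H3f3aos) and Hira (Gm15798). How strand was used in counting is not given in the sources used here, so reads from the 2 strands of each overlap cannot be told apart.

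H3f3a and H3f3b encode the same protein from different letters, which is what lets a count table read them separately. Their coding sequences in GENCODE M21 (at chr1:180803080-180811926 and chr11:116023410-116024009, both on the minus strand) are 408 bases long without the stop codon and differ at 95 bases, which leaves 76.7% identical. Of those 95 differences, 81 fall on the last base of a codon, 83 of the 136 codons differ, and 0 codons encode another amino acid. The longest identical run is 23 bases, and their longest transcripts share 0 windows of 50 bases. The first 150 coding bases of each are printed 5′ to 3′, with the bases at which they differ in capitals.
H3f3a: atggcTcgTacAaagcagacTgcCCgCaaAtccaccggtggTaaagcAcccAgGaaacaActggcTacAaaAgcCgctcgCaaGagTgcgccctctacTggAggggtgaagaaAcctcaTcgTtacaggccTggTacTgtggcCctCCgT
H3f3b: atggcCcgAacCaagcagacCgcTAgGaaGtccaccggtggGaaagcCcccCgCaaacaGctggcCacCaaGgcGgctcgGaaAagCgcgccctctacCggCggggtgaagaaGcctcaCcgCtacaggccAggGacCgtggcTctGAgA

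Other members share more sequence with other genes. Of the 50-base windows of the longest transcript, 69.6% in H2afz, 64.4% in Hira and 30.3% in H3f3a also occur in a transcript of another gene. Among the genes that share them are Tmcc1 for H2afz, the overlapping model Gm28539 for Hira, and Gm17275 and H3f3c for H3f3a. The share is 9.7% in H2afx, 8.4% in H3f3b, 5.7% in H1f0 and 0.0% in H1foo, H2afy, Daxx and Npm2. How reads that match several genes were counted is not given in the sources used here, so the levels of H2afz, Hira and H3f3a are uncertain to that extent. The same rule applied to every library of a table, but reads of a sharing gene that differs between groups could still enter a comparison. The part of the sharing genes in the differences below was not tested.

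H1foo and H3f3a, shown here as 2 examples, have unlike promoters. RefSeq's promoter table (GRCm38.p6, 300 bases around each gene's start) held 8 of the 10 genes, without H2afx and Npm2. The promoter of H1foo has 5 CpG dinucleotides, against a median of 7 over 32851 promoters of the table, and that of H3f3a has 39. Both are printed 5′ to 3′ on the gene's own strand with each CpG in capitals, H1foo from chr6:115944681-115944980 (plus strand) and H3f3a from chr1:180813556-180813855 (minus strand).
H1foo: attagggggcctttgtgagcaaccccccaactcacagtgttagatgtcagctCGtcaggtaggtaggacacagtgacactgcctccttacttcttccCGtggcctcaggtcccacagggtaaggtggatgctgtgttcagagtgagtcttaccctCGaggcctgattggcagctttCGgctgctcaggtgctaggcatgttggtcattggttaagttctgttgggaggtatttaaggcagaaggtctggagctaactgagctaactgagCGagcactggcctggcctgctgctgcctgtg
H3f3a: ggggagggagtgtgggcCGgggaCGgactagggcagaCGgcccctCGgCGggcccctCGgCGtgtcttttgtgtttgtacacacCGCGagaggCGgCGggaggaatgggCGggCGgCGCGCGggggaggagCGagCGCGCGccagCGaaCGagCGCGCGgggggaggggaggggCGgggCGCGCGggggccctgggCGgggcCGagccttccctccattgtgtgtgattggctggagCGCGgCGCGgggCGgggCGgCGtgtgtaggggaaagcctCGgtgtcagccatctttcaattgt
The promoters of H1f0, H2afz, H2afy, H3f3b and Hira hold 29, 34, 37, 24 and 31 CpG dinucleotides. The 3 listed for Daxx hold 33, 32 and 32, and H1foo has fewer than any of these. H1f0 was called higher in deletion embryos as H1foo was, and a link between CpG content and change was not tested. On either strand, the H1foo promoter holds 1 match to the E-box letters CANNTG, present in 72.3% of all promoters of the table, and 2 matches to CCAAT, present in 37.4%. TATAAA, present in 13.6% of all, is found in the H3f3b promoter and not in that of H1foo, and TAATTG, present in 8.0%, is not found in that of H1foo. These matches describe letters in a window and none is shown to be a bound site.

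Total counts of the 116 libraries compared ran from 109007 to 12004992, and libraries under 100000 counts (19 of 135 embryo libraries, all 6 IgG libraries of replicate 2 among them) were left out. Levels are given as CPM, the counts of a gene divided by the library's TMM-scaled total and expressed per 1e6. Smarca5 was lower in deletion embryos, from 3.04 to 341 CPM with a median of 95.6, than in wild type, from 151 to 810 CPM with a median of 328 (log2 fold change -2.06, SE 0.31, edgeR quasi-likelihood test with Benjamini-Hochberg adjustment, adjusted p = 2.63e-07), and the groups overlapped. Because the antibody removes protein, the level of Smarca5 RNA checks no label of the TrimAway groups; its log2 fold change against IgG was -0.65 (SE 0.27, edgeR adjusted p = 0.124), and -1.02 when replicate was a blocking factor (edgeR adjusted p = 0.0138, range over alternatives 0.0138 to 0.479). Trim21 RNA was at 0 counts in all 10 IgG libraries of replicate 1 and had a median of 320 CPM in IgG of replicate 3, while 30 of 31 anti-SMARCA5 libraries held it. The IgG group thus mixes libraries with and without Trim21 RNA. Within replicate 1, the presence of Trim21 and the loss of SMARCA5 cannot be told apart against IgG. Libraries stood apart within both experiments: 1 deletion library of replicate 2 had 266 CPM of Smarca5 and 18.7 CPM of the oocyte growth factor gene Gdf9, where the other deletion libraries had at least 1139 CPM of Gdf9; 2 wild type libraries of replicate 2 had the lowest Smarca5 of their group (151 and 159.8 CPM) with 253 and 653 CPM of Gdf9; and 1 anti-SMARCA5 library of replicate 2 had 0 counts of Trim21. Results without these libraries are given where they differ. The libraries were picked after their Smarca5, Gdf9 and Trim21 values were seen, and Gdf9 followed H1foo across libraries (Pearson r 0.798). Changes recomputed without them are therefore no independent check.

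In wild type embryos the H3.3 gene H3f3b and the H2A.Z gene H2afz were the most abundant of the 10, with medians of 426 and 325 CPM per kb of exon. H3f3a followed at 59.6 CPM per kb, then H1foo at 18.8, H2afx at 10.2, H1f0 at 10.004, Npm2 at 9.51, Hira at 7.93, Daxx at 2.33 and the macroH2A gene H2afy at 0.0966. Between neighbours in this order, the ranges over the 22 embryos were apart only between H2afz and H3f3a. In uninjected embryos H2afz (183 CPM per kb) and H3f3b (169.9 CPM per kb) were again the most abundant, and H3f3a came next at 71.0 CPM per kb.
In deletion embryos the order differed. H1foo (335 CPM per kb) and H3f3b (333 CPM per kb) headed it, H2afz was at 84.0, Npm2 at 82.8, H1f0 at 27.5, H2afx and H3f3a both at 17.4, Daxx at 4.84 and Hira at 1.95 CPM per kb. All neighbours in that order overlapped over the 28 embryos. The 10 genes together took between 0.216% and 0.445% of all counts in wild type (median 0.289%) and between 0.0887% and 1.35% in deletion embryos (median 0.173%).

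**Figure D1:**
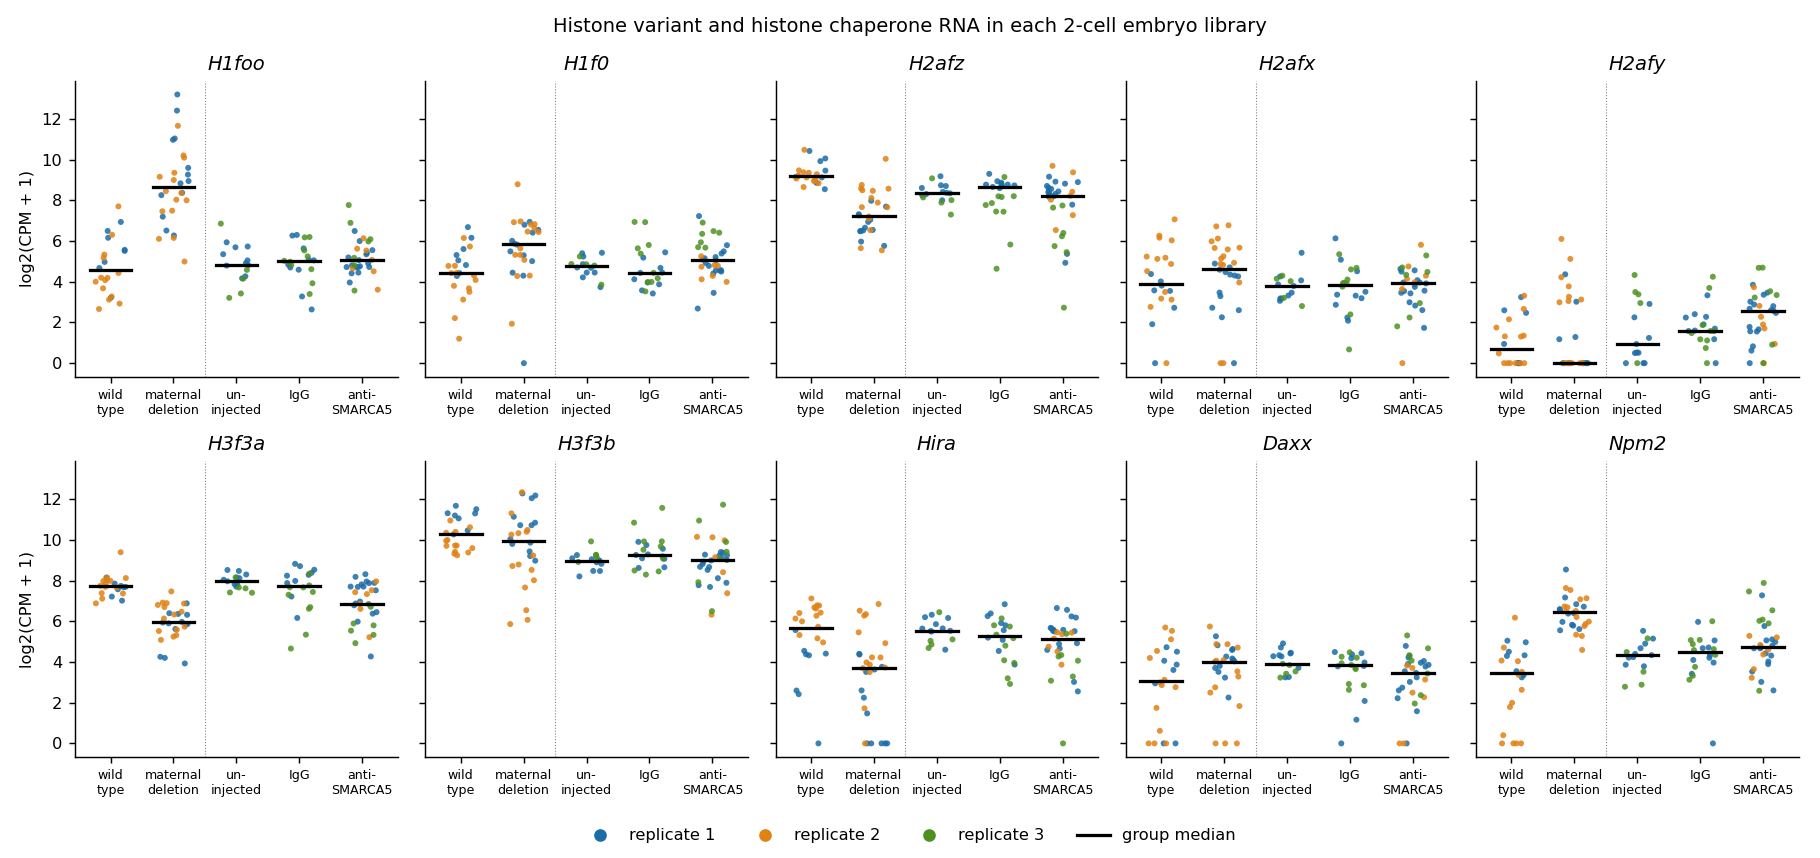
Level of each of the 10 genes as log2(CPM + 1), 1 panel per gene, with 1 point per embryo library coloured by replicate number and a bar at the group median; the dotted line parts the deletion from the TrimAway experiment. H1foo and Npm2 sit higher and H2afz and H3f3a lower in deletion embryos (medians 402, 85.8, 149 and 61.0 CPM) than in wild type (22.6, 9.85, 577 and 209 CPM).

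As a share of each library's scaled total, RNA of the egg's linker histone and of nucleoplasmin was higher in deletion than in wild type embryos. RNA of H2A.Z, of 1 of the H3.3 genes and of Hira was lower. By edgeR's quasi-likelihood test at a Benjamini-Hochberg adjusted p under 0.05, 6 of the 9 genes tested were called, 3 higher (H1foo, Npm2 and H1f0) and 3 lower (H3f3a, H2afz and Hira). Over all 8518 genes tested, 56.6% were called, 30.3% higher and 26.4% lower, so a call on its own sets no member apart from other genes. The share of all genes whose groups did not overlap was not computed in either experiment. Statements on ranges below therefore set no member apart either. The median log2 fold change of the 9 was 0.06, against 0.18 over all genes tested. Total-count scaling in place of TMM put that median of all genes at -0.04. H2afy did not pass the filter on low counts. In whole embryos, fewer transcripts per cell and fewer or smaller cells contributing RNA cannot be told apart. Levels are relative to each library's total, and no measure of the amount of RNA per embryo was used.

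H1foo, which encodes the linker histone of the oocyte and egg, ranged from 5.33 to 207 CPM in wild type (median 22.6) and from 30.8 to 9419 CPM in deletion embryos (median 402). All 28 deletion embryos were above the wild type median and 20 were above the highest wild type embryo, yet the groups overlapped. The medians differed 17.8-fold over all embryos, 10.8-fold in replicate 1 and 19.8-fold in replicate 2. The fitted log2 fold change was 4.83 (SE 0.60, 95% interval 3.66 to 5.99, edgeR adjusted p = 4.14e-09), higher than that of 99.6% of the genes tested, and it was 5.16 without the libraries that stood apart. The highest wild type H1foo value belonged to the wild type library with 653 CPM of Gdf9, and the lowest deletion value to the deletion library with 18.7 CPM of Gdf9.

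H1f0 encodes a linker histone typical of resting and differentiated cells. It ranged from 1.30 to 102 CPM in wild type (median 20.6) and from 0 to 442 CPM in deletion embryos (median 56.5), and 23 of 28 deletion embryos were above the wild type median. Its log2 fold change was 1.24 (SE 0.40, edgeR adjusted p = 0.00795). The medians differed 4.93-fold in replicate 2 and 1.57-fold in replicate 1. The call was lost without replicate 2, where the log2 fold change was 0.32 (edgeR adjusted p = 0.633, range over alternatives 0.00201 to 0.633). The test of a difference between replicates, given below, did not call H1f0. Counted per exon length, H1foo outnumbered H1f0 by a median of 1.71-fold in wild type and 15.6-fold in deletion embryos, and 26 of 28 deletion embryos exceeded the wild type median of that ratio.

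H2afz, the gene for H2A.Z, a variant found at promoters and other regulatory sites, ranged from 373 to 1429 CPM in wild type (median 577) and from 45.6 to 1051 CPM in deletion embryos (median 149). In replicate 1 all 13 deletion embryos were below the lowest wild type embryo, and in replicate 2 the same held for 13 of 15. Over both replicates 24 of 28 were below the lowest wild type value, and 1 was above the wild type median. That 1 was the deletion library with 266 CPM of Smarca5. The log2 fold change of H2afz was -1.76 (SE 0.27, edgeR adjusted p = 3.33e-07), and -2.07 without the libraries that stood apart.

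H2afx encodes H2A.X, the variant whose phosphorylation marks DNA breaks. It ranged from 0 to 133 CPM in wild type (median 14.1) and from 0 to 108 CPM in deletion embryos (median 24.1), with full overlap, and its log2 fold change of 0.06 had a 95% interval from -0.93 to 1.04. The sign of that change depended on the scaling, being -0.17 with DESeq2's size factors and -0.33 with total counts. H2afy, which encodes macroH2A1, a variant with a large non-histone domain, was low in most embryos: 17 of 22 wild type and 18 of 28 deletion embryos held 3 counts or fewer, and its highest levels were 8.94 CPM and 67.7 CPM. Most of its counts came from deletion embryos of replicate 2, where 8 of 15 held more than 3 counts and the median was 6.95 CPM (23 counts), against 0.93 CPM in wild type embryos of that replicate. Those deletion libraries were also deeper, with a median total of 4686051 counts against 650104 in wild type of that replicate, and raw counts follow depth. H2afy was not tested for the deletion.

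The H3.3 genes parted. H3f3a ranged from 117 to 672 CPM in wild type (median 209) and from 14.2 to 176 CPM in deletion embryos (median 61.0). All 28 deletion embryos were below the wild type median, 25 were below the lowest wild type embryo, and in replicate 1 the groups did not overlap. Its log2 fold change was -1.82 (SE 0.24, edgeR adjusted p = 2.63e-08), and -2.01 without the libraries that stood apart. H3f3b ranged from 606 to 3267 CPM in wild type (median 1267) and from 57.2 to 5189.9 CPM in deletion embryos (median 990.0), with 12 deletion embryos above and 16 below the wild type median. Its log2 fold change of -0.06 had a 95% interval from -0.75 to 0.63 (edgeR adjusted p = 0.887), and the spread was wide: 4 deletion embryos exceeded the highest wild type embryo and 11 were below the lowest. Replicate mattered for H3f3b in both groups, with medians of 2432 and 843 CPM in wild type and of 1685 and 442 CPM in deletion embryos for replicates 1 and 2.

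Since both genes encode 1 protein, the ratio of their transcripts was also computed in each embryo, as counts plus 1 divided by exon length. H3f3b outnumbered H3f3a by a median of 6.07-fold in wild type (log2 ratio 2.60, range 1.45 to 4.90) and 16.6-fold in deletion embryos (log2 ratio 4.06, range -0.83 to 8.31). The ratio exceeded the wild type median in 22 of 28 deletion embryos, and in 2 of 28 H3f3a was the more abundant. Within replicate 1 the median log2 ratio was 3.84 in wild type and 5.04 in deletion embryos, and within replicate 2 it was 2.08 and 3.39. No test was run on this ratio.

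**Figure D2:**
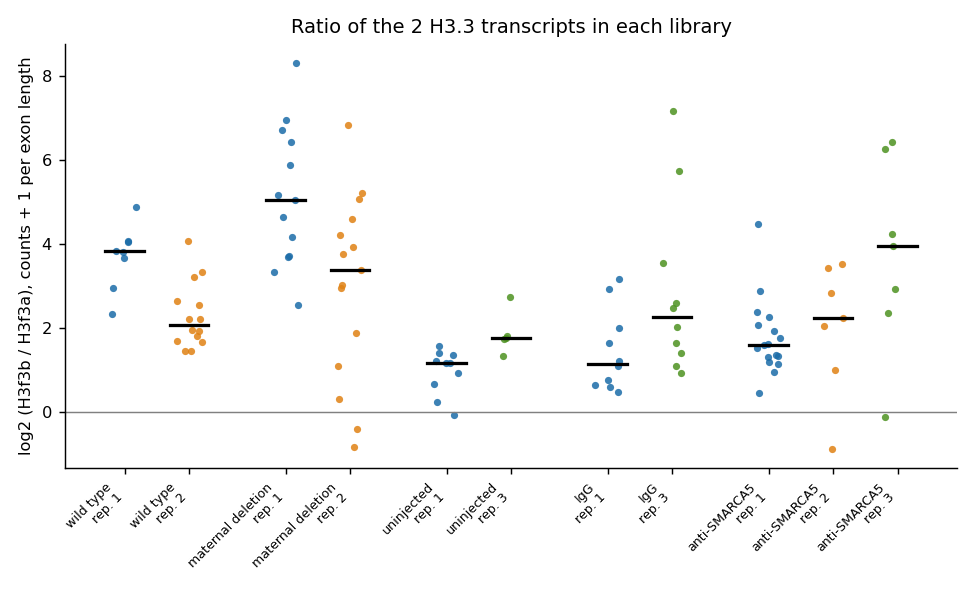
Log2 of H3f3b over H3f3a in each library, from counts plus 1 per exon length, by group and replicate number; points are embryos, bars are medians and 0 means equal amounts. Medians are 3.84 and 2.08 in wild type replicates 1 and 2, 5.04 and 3.39 in deletion replicates 1 and 2, and 1.61, 2.25 and 3.97 in anti-SMARCA5 replicates 1, 2 and 3.

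Of the H3.3 chaperones, Hira was lower in deletion embryos. It encodes the core of the complex that places H3.3 at genes and, after fertilization, in the paternal genome. Hira ranged from 0 to 138 CPM in wild type (median 49.3) and from 0 to 114 CPM in deletion embryos (median 12.1), and 24 of 28 deletion embryos were below the wild type median while the ranges overlapped. The medians of Hira were 19.4 and 80.0 CPM in wild type and 3.74 and 17.6 CPM in deletion embryos for replicates 1 and 2. In replicate 1, 7 of 13 deletion and 3 of 8 wild type embryos held 3 counts or fewer. The log2 fold change of Hira was -1.45 (SE 0.54, edgeR adjusted p = 0.0191). The call did not hold with a minimum of 500000 counts per library (-1.25, edgeR adjusted p = 0.119) or without replicate 1 (-1.22, edgeR adjusted p = 0.0748), and over the alternatives the adjusted p ran from 0.00367 to 0.119. Daxx, which places H3.3 together with ATRX at telomeres and pericentric repeats, ranged from 0 to 50.8 CPM in wild type (median 7.34) and from 0 to 52.5 CPM in deletion embryos (median 15.3). The Daxx log2 fold change of 0.07 had a 95% interval from -0.98 to 1.13 and turned to -0.18 with total counts, so a difference in either direction of about that size was not resolved.

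Npm2 encodes nucleoplasmin, the egg's H2A-H2B storage chaperone. It ranged from 0 to 71.5 CPM in wild type (median 9.85) and from 23.1 to 372 CPM in deletion embryos (median 85.8). All 28 deletion embryos were above the wild type median and 17 were above the highest wild type embryo; in replicate 1 the groups did not overlap. The medians differed 8.71-fold over all embryos, 4.42-fold in replicate 1 and 21.5-fold in replicate 2. Wild type counts of Npm2 were low, with a median of 5.5 counts and 8 of 22 embryos at 3 counts or fewer. The size of the fold is uncertain to that extent. The log2 fold change was 2.72 (SE 0.42, edgeR adjusted p = 4.32e-07), or 3.13 without the libraries that stood apart.

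The 6 calls also held when replicate was a blocking factor, a fit in which 57.6% of all genes were called. A test of whether the effect of the deletion differed between replicates 2 and 1 called 0 of 10 genes at an edgeR adjusted p under 0.05, against 1.08% of all 11352 genes tested, and 1 gene at an unadjusted p under 0.05 (H2afz, difference 1.35 on the log2 scale, adjusted p = 0.135).

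Transcripts of other oocyte genes and of the 2-cell stage moved with these results. Summed over 8 oocyte and egg genes (Gdf9, Bmp15, Zp1, Zp2, Zp3, Mos, Btg4 and Oosp1), the level ran from 199 to 8137 CPM in wild type (median 1370) and from 483 to 31050 CPM in deletion embryos (median 12812). Wild type embryos themselves differed by replicate, with medians of 4690 CPM in replicate 1 and 403 CPM in replicate 2. Summed over the 8 of 12 listed 2-cell stage genes in the tables (Zscan4, Tdpoz and related genes), the level ran from 45.6 to 1258 CPM in wild type (median 331) and from 0 to 1959 CPM in deletion embryos (median 40.3), where Zscan4e, Zscan4f, Tdpoz3 and Tdpoz4 had a median of 0. Their part in the rise of H1foo, H1f0 and Npm2 and in the fall of H2afz, H3f3a and Hira was not tested.
Markers of other cells were read the same way. Of 8 cumulus and granulosa cell genes, 7 (Amh, Foxl2, Fshr, Inha, Has2, Ptgs2 and Tnfaip6) had a median of 0 in deletion embryos, where the sum ran from 0 to 74.5 CPM (median 15.1), and all 8 did in wild type, where it ran from 0 to 43.6 CPM (median 0). The sum of 6 sperm and spermatid genes ran from 0 to 3.45 CPM in wild type (median 0) and from 0 to 36.1 CPM in deletion embryos (median 2.77). The sum of 8 genes of later preimplantation lineages ran from 0 to 46.9 CPM in wild type (median 2.20) and from 0 to 1123 CPM in deletion embryos (median 43.2). All 8 had a median of 0 in wild type, and Cdx2, Nanog, Gata6, Sox17, Eomes and Elf5 did in deletion embryos, leaving Krt8 and Krt18. The sum was highest in deletion embryos of replicate 2, with a median of 96.9 CPM against 1.56 CPM in wild type of that replicate. There Cdx2, Sox17 and Elf5 had a median of 0 in deletion embryos. In replicate 1 the median sums were 4.99 CPM in deletion embryos and 2.70 CPM in wild type. Their part in the differences was not tested.

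Across all 116 libraries, the genes whose level followed that of H1foo most closely were D6Ertd527e (Pearson r 0.824), 8430410A17Rik (0.818), Zar1 (0.814), Ccdc69 (0.804) and Gdf9 (0.798), out of 7480 genes whose mean level was at least 4 as log2 CPM. Zar1 and Gdf9 are known for their roles in the oocyte. These correlations share the contrast between groups and the libraries' depth and scaling, and they are a description with no test. Within groups and replicate numbers the closest pairs among the 10 genes were H2afz with H3f3a (r 0.42) and, in opposite directions, H1foo with Hira (r -0.42), while H1foo and H1f0 had r 0.36.

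In the TrimAway experiment, whether any of the genes passed the test against IgG depended on the replicates used and on the replicate block. Without it, by edgeR's quasi-likelihood test, 0 of 9 tested genes were called at an adjusted p under 0.05, against 3.03% of all 10447 genes, with 2 of the 9 at an unadjusted p under 0.05 and 0 called by DESeq2. With replicate as a blocking factor 3 of 9 were called (H3f3a, H2afz and Npm2), against 25.8% of all genes. Replicate 3 alone, without the block, gave calls of H3f3a and Npm2, against 16.5% of all genes. The fit over all replicates holds 17, 7 and 7 anti-SMARCA5 libraries of replicates 1, 2 and 3. The IgG libraries number 10 in replicate 1 and 10 in replicate 3, and none of replicate 2 passed the minimum of counts. IgG embryos themselves differed by replicate, with H2afz medians of 436 CPM in replicate 1 and 225 CPM in replicate 3. The fit without the block does not adjust for this unequal mix of replicates. Without the block the fold changes of the 9 ran from -0.69 (H3f3a) to 0.78 (Npm2), with a median of -0.27 against 0.04 over all genes. Comparisons of anti-SMARCA5 with IgG and with uninjected embryos share the anti-SMARCA5 libraries, so their values are given side by side and not as support for each other.

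Without the block, H3f3a had the smallest adjusted p of the 9 genes tested against IgG. It ranged from 168 to 366 CPM in uninjected embryos (median 249), from 24.3 to 452 CPM with IgG (median 209.5) and from 18.3 to 317 CPM with anti-SMARCA5 (median 116). With anti-SMARCA5, 24 of 31 embryos were below the IgG median and 29 of 31 below the uninjected median, 18 of them below the lowest uninjected embryo. The log2 fold change against IgG was -0.69 (SE 0.28, edgeR adjusted p = 0.112), and in the blocked fit it was -1.04 (SE 0.28, edgeR adjusted p = 0.00742, range over alternatives 0.00742 to 0.470). Against uninjected embryos it was -0.90 (SE 0.26, edgeR adjusted p = 0.0113, range over alternatives 0.00224 to 0.180). That was the only call among the 9 genes tested there, against 27.9% of all 10750 genes, and it was lost without replicate 1 (-1.07, edgeR adjusted p = 0.180), where 1 of all 10544 genes was called, and within replicate 1 alone (-0.70, edgeR adjusted p = 0.0823). In the blocked fit, with 31.9% of all genes called, H3f3a was again the only 1 of the 9 (-1.10, edgeR adjusted p = 0.00224).

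Replicate 3 of the anti-SMARCA5 embryos held the lowest H3f3a. The medians were 205.5 CPM in replicate 1, 160.4 CPM in replicate 2 and 54.7 CPM in replicate 3, against 306 and 165 CPM with IgG in replicates 1 and 3. Within replicate 3, all 7 anti-SMARCA5 embryos were below the lowest uninjected embryo, and all 7 were above the highest uninjected embryo for H1f0. Within that replicate, where 16.5% of all genes were called, the log2 fold changes against IgG were -1.43 for H3f3a (edgeR adjusted p = 0.0419) and 1.83 for Npm2 (edgeR adjusted p = 0.0256). Within replicate 1 they were -0.78 for H3f3a (edgeR adjusted p = 0.147) and 0.37 for Npm2 (edgeR adjusted p = 0.640). The difference between the effects in replicates 3 and 1 was called for 0 of 10 genes by edgeR, against 0.316% of all 12659 genes, with 1 of the 10 at an unadjusted p under 0.05 (Npm2, difference 1.48, adjusted p = 0.30). The IgG libraries of replicate 1 held no Trim21 RNA, so replicates 3 and 1 also differ in their control.

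Npm2 ranged from 5.89 to 45.2 CPM in uninjected embryos (median 19.2), from 0 to 63.1 CPM with IgG (median 21.2) and from 5.01 to 235 CPM with anti-SMARCA5 (median 26.1), with 6 anti-SMARCA5 embryos above the highest IgG embryo. Its log2 fold change against IgG was 0.78 (SE 0.35, edgeR adjusted p = 0.150) and 0.92 with the block (SE 0.34, edgeR adjusted p = 0.0416, range over alternatives 0.0256 to 0.711). Against uninjected embryos it was 0.95 (SE 0.38, edgeR adjusted p = 0.0543) and 1.14 without replicate 2 (edgeR adjusted p = 0.0302, range over alternatives 0.0242 to 0.689). In anti-SMARCA5 embryos the median of Npm2 was 24.5 CPM in replicate 1 and 66.8 CPM in replicate 3. The sum of the oocyte and egg genes had medians of 1895 CPM in uninjected, 1683 CPM in IgG and 2579 CPM in anti-SMARCA5 embryos. Within replicate 3 these medians were 1277, 2977 and 6111 CPM, and within replicate 1 they were 1914, 1420.0 and 1853 CPM. The sum of the 2-cell stage genes had medians of 211, 419 and 433 CPM in uninjected, IgG and anti-SMARCA5 embryos, and of 297, 433 and 139 CPM within replicate 3. Later lineage genes summed to medians of 12.49, 17.1 and 63.9 CPM, cumulus and granulosa cell genes to 6.78, 7.99 and 17.0 CPM, and sperm genes to under 1 CPM in each of these 3 groups. Of the later lineage genes, Nanog, Sox17 and Elf5 had a median of 0 in anti-SMARCA5 embryos, and these and Cdx2 in both controls. Amh, Foxl2, Fshr, Inha, Has2 and Ptgs2 of the cumulus and granulosa cell genes had a median of 0 in all 3 groups. The part of all these marker genes in the values of Npm2, H3f3a and H2afz was not tested.

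H2afz ranged from 157 to 580 CPM in uninjected embryos (median 324), from 23.9 to 630 CPM with IgG (median 395) and from 5.61 to 828 CPM with anti-SMARCA5 (median 297). Its log2 fold change against IgG was -0.29 (SE 0.32, edgeR adjusted p = 0.559), and -0.86 with the block (SE 0.31, edgeR adjusted p = 0.0368, range over alternatives 0.0368 to 0.996). Here too replicate 3 was lowest, with a median of 74.3 CPM against 346 CPM in replicate 1 of the anti-SMARCA5 embryos. 

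The linker histone genes were not called in TrimAway without or with the block. H1foo ranged from 8.25 to 115 CPM in uninjected embryos (median 27.2), from 5.22 to 77.8 CPM with IgG (median 31.1) and from 10.8 to 217 CPM with anti-SMARCA5 (median 32.4), and its log2 fold change against IgG was 0.23 (SE 0.28, edgeR adjusted p = 0.609). H1f0 had medians of 26.8, 20.6 and 32.2 CPM in the same order, with 25 of 31 anti-SMARCA5 embryos above the IgG median, and its log2 fold change against IgG was 0.25 (SE 0.30, edgeR adjusted p = 0.595). In replicate 3 the anti-SMARCA5 medians were higher than both controls: 62.1 CPM for H1foo against 31.1 CPM with IgG and 16.8 CPM without injection, and 80.8 CPM for H1f0 against 30.6 and 28.0 CPM. Against uninjected embryos that of H1f0 was 0.54 (SE 0.28, edgeR adjusted p = 0.137) and that of H2afz -0.31 (SE 0.32, edgeR adjusted p = 0.482). Within replicate 3 alone, 4 genes were called against uninjected embryos, where 26.7% of all genes were: H1f0 (1.30, edgeR adjusted p = 0.0309), H2afz (-1.84, adjusted p = 0.0331), H3f3a (-1.91, adjusted p = 0.00515) and Npm2 (2.39, adjusted p = 0.0242).

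H3f3b, Hira, Daxx and H2afx were not called in any of the 3 TrimAway comparisons. H3f3b had medians of 506 CPM in uninjected, 618 CPM in IgG and 515 CPM in anti-SMARCA5 embryos, Hira 45.2, 37.7 and 34.5 CPM, Daxx 14.03, 13.2 and 10.03 CPM and H2afx 12.8, 13.3 and 14.1 CPM. H2afy was low, with medians of 0.92, 2.01 and 4.94 CPM and was not tested. The ratio of H3f3b to H3f3a had a median of 2.55-fold in uninjected, 3.13-fold in IgG and 4.12-fold in anti-SMARCA5 embryos, where 18 of 31 exceeded the IgG median. IgG itself, compared with no injection, gave 0 calls among 9 genes and 0% of 9915 genes by edgeR; 1 of the 9 (H3f3b, adjusted p = 0.235) and 1440 of all genes had an unadjusted p under 0.05, and DESeq2 called 0 of the 9 and 207 of all. The log2 fold changes there ran from -0.33 (Daxx) to 0.59 (H3f3b). That comparison shares the uninjected embryos with the one above.

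**Figure D3:**
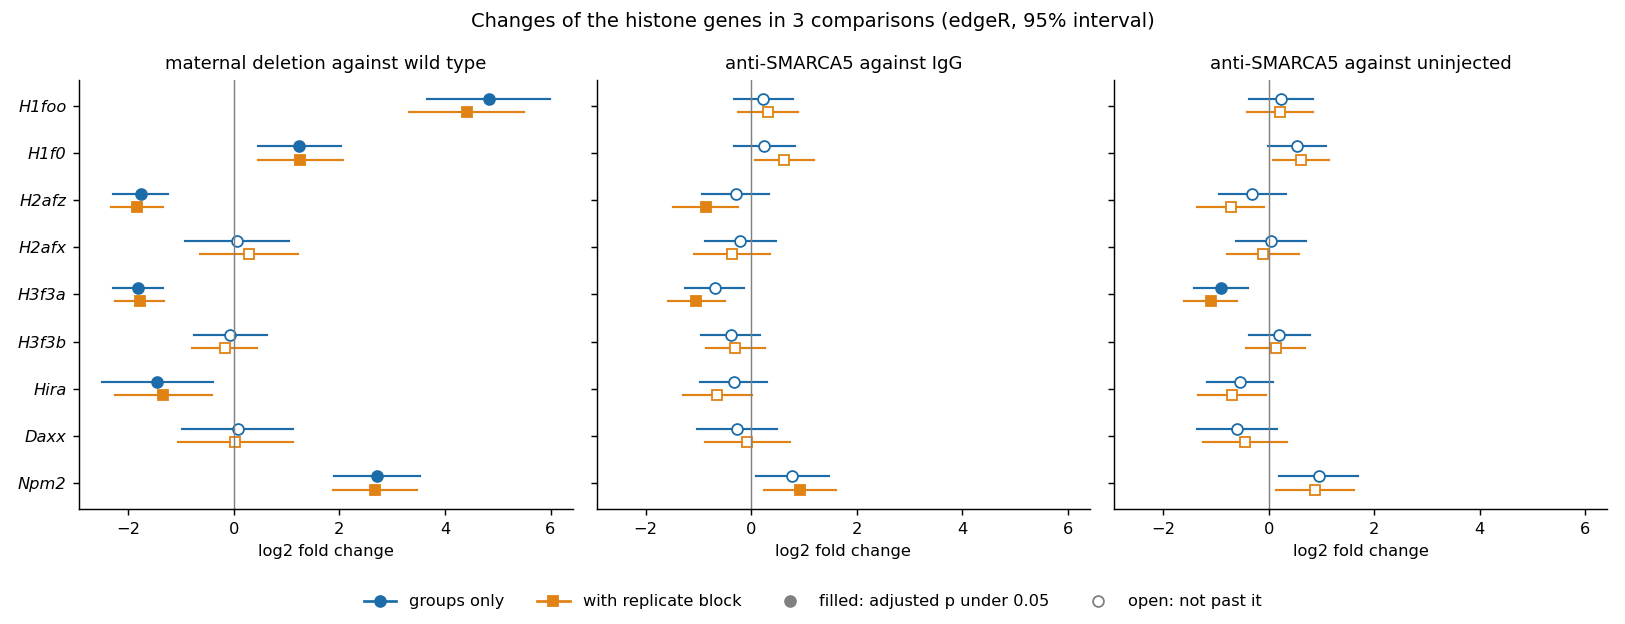
Log2 fold change with its 95% interval for the 9 tested genes in 3 comparisons, from edgeR without (circles) and with (squares) replicate as a blocking factor; filled symbols have an adjusted p under 0.05. The deletion gives 6 calls in either fit, anti-SMARCA5 against IgG gives 0 without and 3 with the block, and anti-SMARCA5 against uninjected gives 1 in either fit, H3f3a.

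Whether the deletion and the antibody differed in their effect was tested directly, as the deletion's log2 fold change minus that of anti-SMARCA5 against IgG in 1 fit of the 4 groups. edgeR called 4 of 10 genes at an adjusted p under 0.05, against 19.2% of all 12035 genes. The difference was 4.42 for H1foo (SE 0.59, edgeR adjusted p = 1.47e-08) and 1.85 for Npm2 (SE 0.52, edgeR adjusted p = 0.0074). It was -1.54 for H2afz (SE 0.43, edgeR adjusted p = 0.00683) and -1.20 for H3f3a (SE 0.37, edgeR adjusted p = 0.0151), and for H1f0 it was 0.96 (SE 0.49, edgeR adjusted p = 0.159). In the blocked fit, where 11.7% of all genes were called, H1foo and Npm2 kept their calls while H2afz (-1.05, edgeR adjusted p = 0.0755) and H3f3a (-0.82, edgeR adjusted p = 0.113) lost theirs. With a minimum of 500000 counts H1f0 was called as well (1.48, edgeR adjusted p = 0.0435). The experiments also differ in collection, sequencing lane and genetic setting, and these cannot be told apart from the way SMARCA5 was removed.

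The wider machinery was read from 47 other genes of histone variants, deposition and storage, of which 44 were in the tables. In deletion embryos 37 were tested and 23 called, 5 higher and 18 lower, with a median log2 fold change of -0.74 against 0.18 over all genes tested. That is to be read against the 56.6% of all genes called, 30.3% higher and 26.4% lower, and so are the counts by list that follow. The other histone variants tested, H2afv, H2afj and Cenpa, were all called lower (3 of 3). Of the partners of H3.3 deposition 5 of 8 were called, with Ipo4, Atrx, Ubn1 and Ubn2 lower and Asf1a higher. Of the H2A.Z exchange genes 5 of 10 were called, with Ruvbl1, Srcap, Anp32e and Ino80 lower and Yeats4 higher. Of the chaperones coupled to replication 4 of 7 were called, Nasp and Rbbp4 lower and Rbbp7 and Hat1 higher, and of other chaperones 6 of 9, with Npm3 higher and Oip5, Set, Hjurp and Nap1l1 among those lower.

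By size, the leading changes among these were Oip5, which helps load the centromeric H3 variant (log2 fold change -3.31, SE 0.57, edgeR adjusted p = 4.46e-06), and Ipo4, an importin that carries histones H3 and H4 (-2.79, SE 0.54, edgeR adjusted p = 2.99e-05). Ruvbl1, an ATPase of the complexes that exchange H2A.Z, fell by 2.35 on the log2 scale (SE 0.43, edgeR adjusted p = 1.14e-05), and H2afv, the other H2A.Z gene, fell by 2.12 (SE 0.44, edgeR adjusted p = 7.79e-05). Yeats4, a histone reader shared by the H2A.Z exchange and acetylation complexes, rose by 1.97 (SE 0.35, edgeR adjusted p = 6.07e-06). Each of these 5 kept its call in every alternative that gave a value.
With anti-SMARCA5 against IgG, edgeR called 0 of 38 of these genes (median -0.23 against 0.04 over all genes), and 10 in the blocked fit: Oip5, H2afv, Ipo4, Ruvbl1, Cenpa, Set, Npm1, Nasp and Rbbp4 lower and Asf1a higher. Against uninjected embryos 14 of 39 were called, 5 higher and 9 lower, where 17.5% of all genes were called higher and 10.4% lower. That split depended on the scaling: with total counts 0 were called higher and 13 lower, and of all genes 409 higher and 1874 lower in place of 1885 and 1114, as the median log2 fold change of all genes moved from 0.13 to -0.29.

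**Figure D4:**
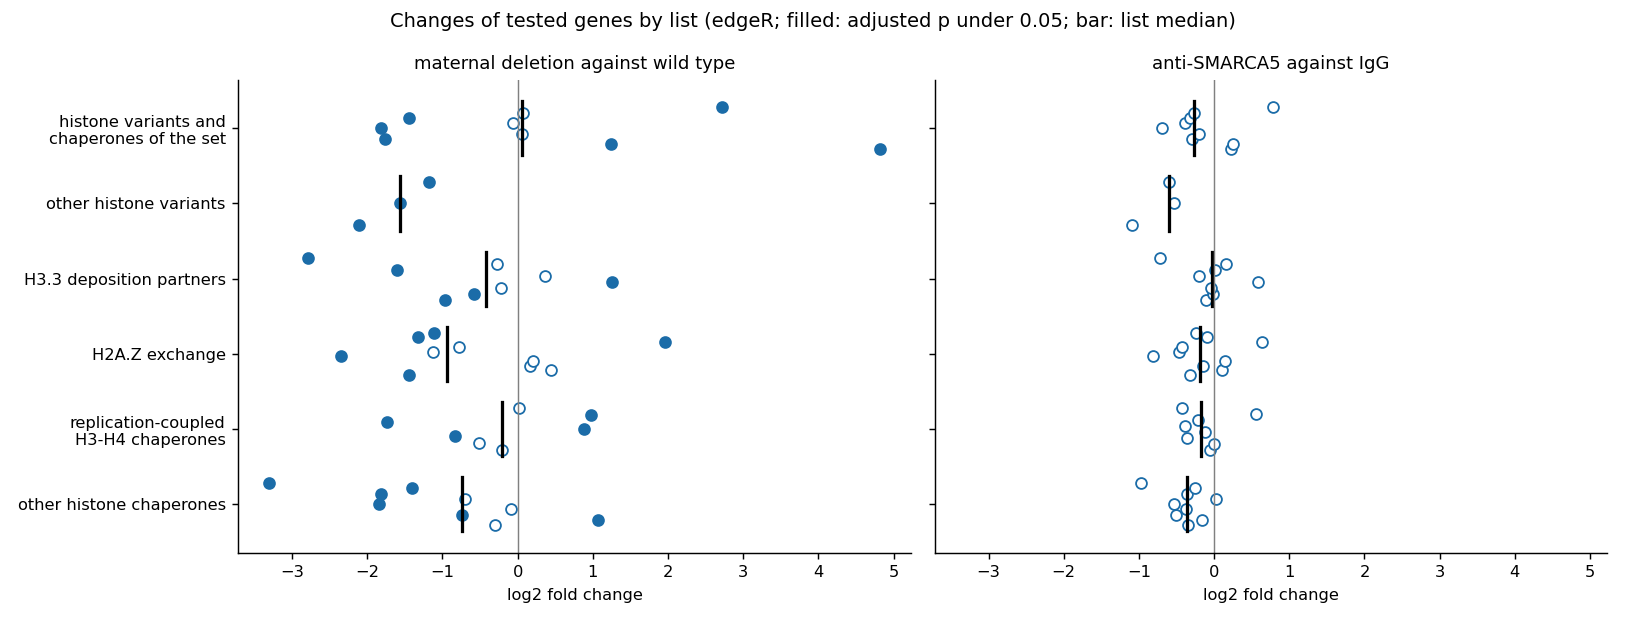
Log2 fold change of every tested gene of the 10 (top line) and of the 5 lists of other histone variant, deposition and chaperone genes, for the deletion (left) and anti-SMARCA5 against IgG (right); filled points have an edgeR adjusted p under 0.05 and bars are list medians. On the left 18 of the 37 other genes are called lower and 5 higher, and on the right no point is filled.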

How the data were processed

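The deposited tables hold unnormalized whole-number read counts of each gene, 1 table for the deletion and 1 for the TrimAway experiment. Per the submitters' processing notes, Trim Galore 0.6.5, cutadapt 2.3, HISAT2 2.1.0 and the GRCm38 build were used. The counting tool, the annotation release and the handling of strand and of reads that match several genes are not given in the sources used here. Each deposited table has 25965 lines, and lines of the same identifier (57 identifiers) were summed to 25900 genes. Groups and replicate numbers came from the sample labels. Libraries under 100000 counts were left out, which kept 116 of 138 libraries (3 of the 138 were wells without an embryo).

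Differences were tested by edgeR 4.0.16 under R 4.3.3 (TMM scaling, filterByExpr, robust quasi-likelihood F test, Benjamini-Hochberg adjustment over all genes tested, threshold 0.05), fitted on the whole table and on the libraries of the groups compared; the procedure was tested on simulated data. Standard errors came from the F statistic, and intervals are 95% intervals. Alternatives were the replicate number as a block, DESeq2 1.42.0, other scalings, no filter, a minimum of 500000 counts, each replicate left out or taken alone, and, chosen after seeing the data, leaving out the libraries that stood apart. By the labels a replicate number marks a pool of embryos, so the numbers pair groups as batches; in the deletion experiment replicates 1 and 2 were on different lanes, which confounds collection with lane. Over 8933 genes, same-numbered group means deviated together with a correlation of 0.515 (deletion and wild type), 0.631 (anti-SMARCA5 and IgG), 0.0915 (anti-SMARCA5 and uninjected) and 0.418 (IgG and uninjected).

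The members, the gene lists and the marker lists were chosen with earlier results of these data known. Named genes are all 10 members, Smarca5, the 5 largest called changes among the other listed genes whose mean level is at least 4 as log2 CPM, and the 5 genes most correlated with H1foo on log2(CPM + 1). The libraries set apart, Gdf9, Trim21 and the other called genes of the lists were named after their values were seen. Coding sequences came from GENCODE M21 and promoters from RefSeq. 1 called gene counted in the lists is not reported here.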

Additional observations from a re-analysis of the deposited data

Results flagged for a closer look

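For 4 of the genes the effect of the maternal deletion differed from the effect of anti-SMARCA5 against IgG by the test of the difference itself (edgeR's quasi-likelihood test, Benjamini-Hochberg adjusted p under 0.05). On the log2 scale the deletion's effect minus the antibody's was 4.42 for H1foo, 1.85 for Npm2, -1.54 for H2afz and -1.20 for H3f3a. The differences of H2afz and H3f3a did not pass in the fit with replicate as a blocking factor.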

How the results depend on the processing

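Of 267 log2 fold changes recomputed under the alternatives, 236 kept their direction and side of the threshold. Reversed ones were, in the deletion, H2afx (-0.17 with DESeq2, -0.17 with RLE scaling, -0.33 with total counts, -0.11 with no filter) and Daxx (-0.13, -0.11, -0.18 and -0.091 in the same order, -0.24 with a minimum of 500000 counts, -0.14 without replicate 1), and H1foo for anti-SMARCA5 against IgG (-0.10 without replicate 3 to 0.61 without replicate 1, and -0.11 in replicate 1 alone). Over all 12 alternatives the H1foo value against IgG ran from -0.11 to 1.02. The cause of the reversals was not tested. Calls among the 10 genes in the deletion ranged from 4 to 6. Against IgG, the replicate block, which pairs the pools, raised calls from 0 to 3 and replicate 3 alone gave 2. Against uninjected embryos, leaving out a replicate gave 0 to 2, replicate 1 alone 0 and replicate 3 alone 4. The difference between the effects kept 2 with the block, which changed no other count of calls of the 10 genes. For the other listed genes against IgG, calls were 10 with the block, 2 with DESeq2, 2 with no filter, 0 to 2 without a replicate and 6 in replicate 3 alone; against uninjected embryos, 0 to 11 without a replicate and 6 in replicate 1 alone. Calls over all genes ran from 2801 (without replicate 2) to 10416 (no filter) in the deletion, 0 to 3010 against IgG, 1 to 6184 against uninjected embryos, 0 to 881 for IgG against uninjected embryos and 1404 to 2441 for the difference between the effects. With total counts in place of TMM, calls over all genes against IgG were 17 higher and 47 lower in place of 181 and 136. H2afy had 3 counts or fewer in most wild type and deletion embryos, which limits what can be said of it.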
